A study of Mus musculus with 54 samples.

Results

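Genes that decide between absorptive and secretory fate in the intestinal crypt, with the Notch signal that steers the choice, were followed through mRNA of sorted crypt cells and through single-cell RNA of the mouse small intestine. They were taken by name: Atoh1, Hes1, Dll1, Dll4, Spdef, Gfi1, Notch1, Jag1 and Sox4, which are 9 of 48059 named entries of the mRNA table and 9 of 27998 genes of the single-cell matrices. Crypt cells of C57BL/6J mice, sorted as Sox9-EGFP Low, gave 16 mRNA libraries in 4 groups of 4 samples: chow diet, high fat diet, conventionalized and germ-free. The labels of the conventionalized and germ-free groups name no diet, and no age or sex is given for any of the 4 groups. Single intestinal cells came from mice of 12 months, labelled as strain C57BL6/2J, with 2 wild-type samples and 2 samples of a knockout of miR-375, a small RNA abundant in enteroendocrine cells. These samples are numbered as set 1 and set 2, and the labels do not say what a set is, how the knockout was made or how many mice a sample holds. No label states that the replicates of a group are separate animals, so p-values measure the spread between these samples, which may be technical.

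In the crypt, a cell that displays the ligands Dll1 or Dll4 activates the receptor Notch1 on its neighbour. The cleaved receptor joins the DNA-binding protein Rbpj and switches on Hes1, a repressor that holds down Atoh1. A cell that escapes this repression keeps Atoh1, the transcription factor needed for secretory fate. Downstream of Atoh1, Gfi1 separates goblet and Paneth cells from enteroendocrine cells and Spdef drives goblet and Paneth cell maturation. Sox4 acts in enteroendocrine and tuft cell formation, and Jag1 is another Notch ligand.

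The mRNA libraries held 10688863 to 19124357 normalized counts. With the commonest value above 0 taken as 1 read, their depth came to 6830000 to 21800000 reads, with germ-free replicate 3 the shallowest. Of the values above 0 in a library, 47% to 55.7% were whole multiples of that value, so these depths are rough estimates. In the sorted cells the 10 stem cell markers had a summed level of 12580 to 151000 normalized counts and the 15 enteroendocrine markers summed to 128300 to 1402000, so enteroendocrine genes were abundant in the sorted fraction as well. After removal of cells with fewer than 500 genes, fewer than 1000 UMIs (unique molecular identifiers, 1 per captured RNA molecule) or at least 25% mitochondrial UMIs, 1197 of 1209 barcodes remained in wild type set 1 and 1241 of 1251 in knockout set 1. The cells of set 2 stood apart: 3363 of 7711 wild-type and 3355 of 7665 knockout barcodes passed, and 42.3% and 24.2% of those that passed were T lymphocyte-like, a name no cluster of set 1 took. Median depth per kept cell was 16325, 15986, 6910 and 14059 UMIs in wild type set 1, knockout set 1, wild type set 2 and knockout set 2. The 2 samples of set 1 shared 1 barcode among kept cells, the 2 samples of set 2 shared 3, and no barcode was shared between sets. The level of the deleted microRNA was not analysed here, so the genotypes rest on the labels.

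The promoters of 3 members are shown, those of Atoh1 and Spdef because these genes rose and fell together over the mRNA libraries, and that of Dll4 because it was the member that passed the test in germ-free mice. Each is the 250 bases before the RefSeq transcription start on the gene's own strand, in build GRCm38.p6, with matches in capitals to TGGGAA (the core of the motif bound by Rbpj), CAGCTG (an E-box bound by Atoh1) or CACNAG (the N-box bound by Hes proteins), searched on both strands with no overlap between them.
Atoh1, chr6:64728875-64729124, plus strand: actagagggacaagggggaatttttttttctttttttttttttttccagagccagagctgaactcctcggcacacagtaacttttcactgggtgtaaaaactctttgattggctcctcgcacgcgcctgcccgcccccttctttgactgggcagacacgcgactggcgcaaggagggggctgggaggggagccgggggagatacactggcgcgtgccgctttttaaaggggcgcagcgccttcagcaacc
Spdef, chr17:27728952-27729201, minus strand: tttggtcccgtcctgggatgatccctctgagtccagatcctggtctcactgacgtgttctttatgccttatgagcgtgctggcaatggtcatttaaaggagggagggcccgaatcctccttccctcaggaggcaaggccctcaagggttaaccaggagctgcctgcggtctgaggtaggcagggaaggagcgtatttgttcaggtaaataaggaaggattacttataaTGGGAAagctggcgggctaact
Dll4, chr2:119325534-119325783, plus strand: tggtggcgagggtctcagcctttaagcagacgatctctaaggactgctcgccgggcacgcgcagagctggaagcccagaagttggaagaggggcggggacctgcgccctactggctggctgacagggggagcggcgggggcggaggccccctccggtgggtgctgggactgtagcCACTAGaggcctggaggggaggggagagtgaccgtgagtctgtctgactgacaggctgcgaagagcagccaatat
The Atoh1 window held none of the 3 motifs. The Spdef window held TGGGAA with its first base 22 bases before the start, and the Dll4 window held an N-box 75 bases before the start. Of 32851 promoters of the same length, 21.6% held TGGGAA, 13.0% held CAGCTG and 36.7% held CACNAG. RefSeq windows matched 8 of the 9 members, with 2 windows each for Dll1 and Gfi1. Sox4 held all 3 motifs and was the other member with TGGGAA. The E-box also lay in the Jag1 window and in the Dll1 window at chr17:15376933-15377182, and the N-box also lay in that of Notch1. These matches describe letters in a window and say nothing of binding.

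Among the ligands, Dll4 was the member that differed between germ-free and conventionalized mice. Its level was 861, 703, 1316 and 537 normalized counts in the 4 germ-free libraries and 411, 268, 254 and 334 in the conventionalized libraries, so each germ-free library lay above each conventionalized one. The means were 854 ± 335 and 317 ± 71.6 normalized counts (SD, n = 4 each), a difference of 1.38 (SE 0.31) on the scale of log2(normalized count + 1), with an adjusted p of 0.0361 by limma with Benjamini-Hochberg adjustment over 20214 genes. Dll4 was the 1 of 9 members called, where 2.24% of all genes tested were called and 1.95% were called as higher in germ-free mice. The call was lost with median-of-ratios scaling (adjusted p = 0.0691), and it was lost when any of the 4 conventionalized libraries or germ-free replicate 1 or 3 was left out, with adjusted p from 0.0582 to 0.122 and a log2 difference of 1.14 to 1.51. Without germ-free replicate 1 a single gene in all was called.

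Markers of other cells moved in the same comparison. All 15 enteroendocrine markers were higher in germ-free mice (median log2 difference 1.95, 5 called), with a sum of 647700 to 1402000 against 147300 to 357200 normalized counts. All 10 stem cell markers (median -1.33, 0 called) and all 10 cycling markers (median -1.56, 2 called) were lower. Endothelial cells also use Dll4; of their 8 markers 5 were higher and 3 lower (median 0.71, 1 called), with sums of 778 to 1049 against 420 to 878 normalized counts and no marker at 0 in every library. The part of these cells in the Dll4 difference was not tested, and in bulk samples fewer cells of a type and less RNA per cell cannot be told apart.

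**Figure D1:**
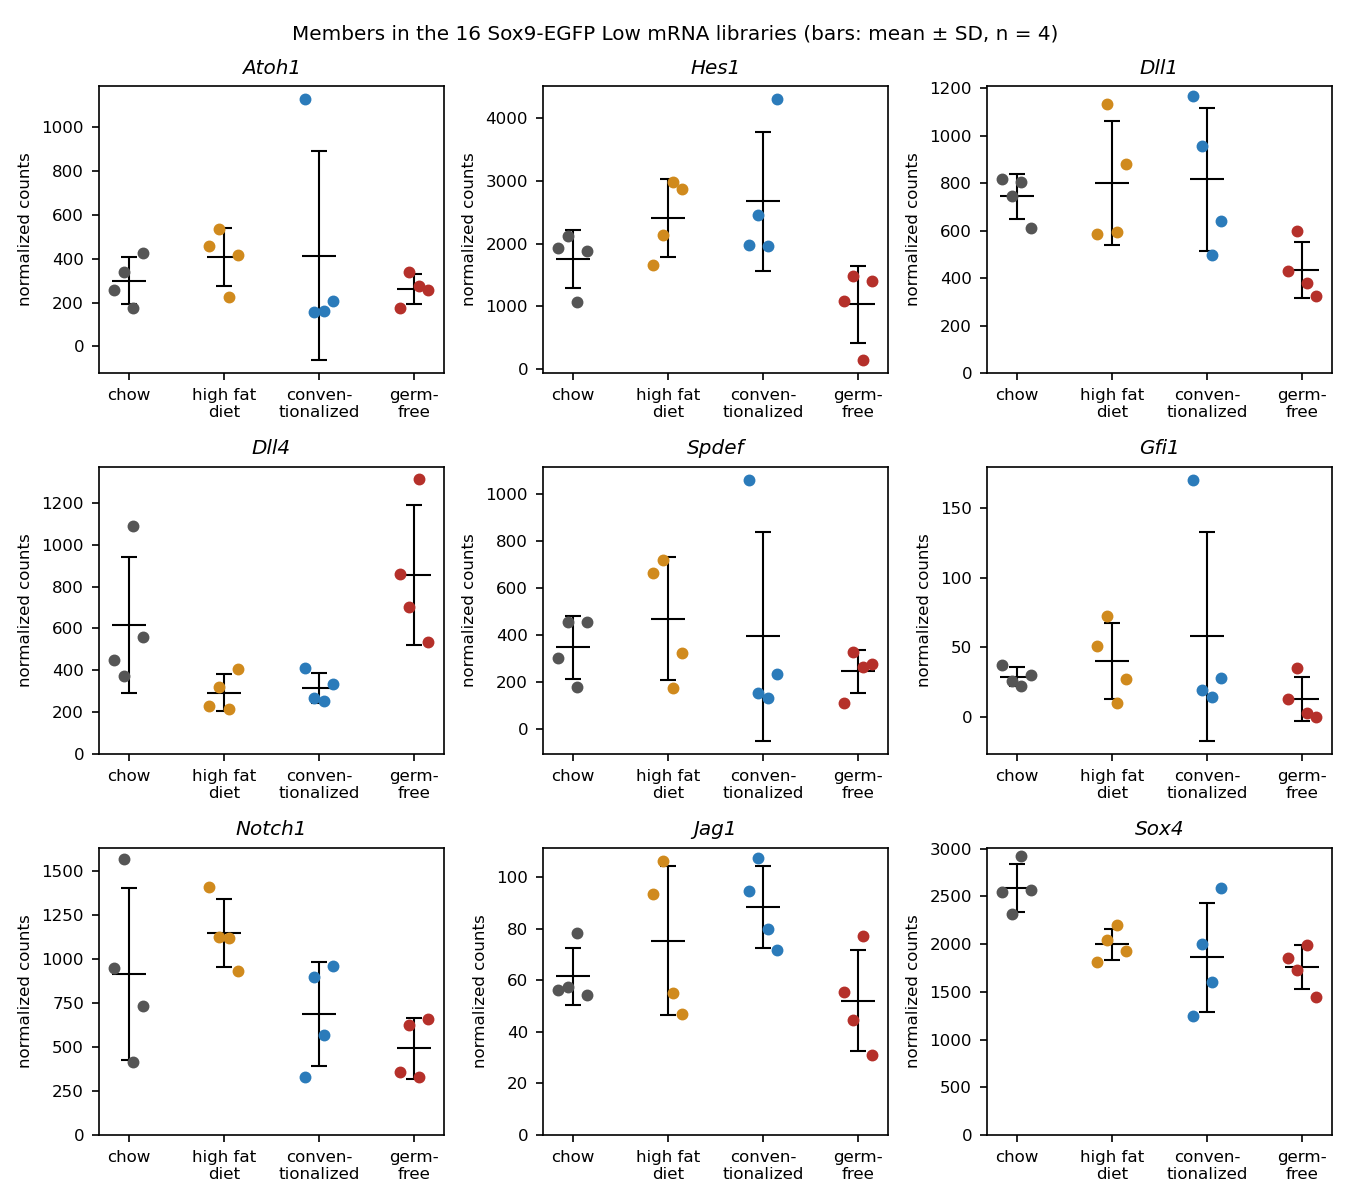
Normalized counts (y axis, linear) of the 9 members in the 16 Sox9-EGFP Low mRNA libraries by group (x axis); points are libraries and bars the mean ± SD (n = 4). Dll4 is 537 to 1316 in germ-free and 254 to 411 in conventionalized libraries, and conventionalized replicate 1 is alone at the top for Atoh1 (1127), Spdef (1058) and Gfi1 (170).

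Over all 16 libraries, the level of Dll4 went with the summed enteroendocrine markers, both as log2(normalized count + 1), with Pearson's r = 0.89 (permutation p = 3e-05, adjusted 0.000315) and Spearman's rho = 0.87 (permutation p = 0.0001, adjusted 0.00126), both two-sided and adjusted over the 63 pairs of member and marker class examined. Without the 2 libraries farthest from the median of the marker sum r was 0.84, and after each group's mean was taken away it was 0.66. Dll4 ran opposite to the cycling markers, with r = -0.87 and rho = -0.88 (adjusted permutation p = 0.000252 and 0.00084), -0.82 without the 2 farthest libraries and -0.73 within groups. The chow group showed the same spread inside 1 group: replicate 3 had the highest Dll4 (1092 against 372 to 560 in the other chow libraries) and the highest enteroendocrine sum (1383000 against 404300 to 872600).

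In the diet comparison Dll4 lay at 229, 321, 217 and 404 normalized counts on the high fat diet and at 447, 372, 1092 and 560 on chow. The groups overlapped, and the difference of -0.99 (SE 0.33) on the log2 scale was not called (adjusted p = 0.105, limma over 16421 genes). It passed when chow replicate 2 was left out (log2 difference -1.19, adjusted p = 0.0415), a fit that called 2590 genes in place of 135. No member was called on the high fat diet, where 0.822% of genes were called (0.207% higher and 0.615% lower), nor between conventionalized and chow mice, where 0.0948% of 17941 genes were called, all lower, and where the groups overlapped for all 9 members (6.55% of genes did not overlap). At an unadjusted p under 0.05, Dll4 and Sox4 passed in each of these comparisons (2 of 9 members, against 26.7% and 11.2% of all genes). The value for Dll4 in conventionalized against chow mice was -0.86 (SE 0.31, adjusted p = 0.350), and this comparison shares its libraries with the other 2. All 15 enteroendocrine markers were lower on the high fat diet than on chow (median log2 difference -1.95, 0 called), and of the 11 tuft cell markers all were lower and 6 were called; their part in the Dll4 values was not tested.

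Dll1, the other Delta ligand of the crypt, did not pass in any comparison. Its level was 431, 597, 380 and 323 normalized counts in germ-free and 1166, 957, 498 and 642 in conventionalized libraries, so germ-free replicate 2 overlapped with the other group. The difference was -0.87 on the log2 scale (SE 0.31, adjusted p = 0.173), and high fat diet against chow gave 0.05 (SE 0.22, adjusted p = 0.914). Jag1 stayed at 31.2 to 108 normalized counts over the 16 libraries, with -0.81 in germ-free mice (SE 0.44, adjusted p = 0.306). The receptor Notch1 ranged from 327 to 1567 normalized counts. Its difference was -0.44 in germ-free mice (SE 0.37, adjusted p = 0.481) and 0.47 on the high fat diet (SE 0.34, adjusted p = 0.412), with overlapping groups in both.

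Hes1, the repressor switched on by Notch, was lower in every germ-free library than in every conventionalized one, but the difference was not called. The 4 germ-free libraries held 1081, 1488, 145 and 1409 normalized counts and the 4 conventionalized libraries 1980, 2456, 1964 and 4308. Germ-free replicate 3, the shallowest library by estimated depth, is far below the rest of its group. It also had the lowest summed stem cell markers (12580 normalized counts) and cycling markers (5377) of the 16 libraries. The part of depth or of cell makeup in its Hes1 value was not tested. The log2 difference of Hes1 was -1.74 (SE 0.62, adjusted p = 0.170) and was -0.95 without that replicate. Hes1 and Dll4 were the 2 of 9 members whose groups did not overlap, where 12.5% of all genes tested had groups that did not overlap, and Dll1, Dll4 and Hes1 were the 3 of 9 with an unadjusted p under 0.05, against 20.1% of genes. On the high fat diet Hes1 lay at 2414 ± 619 against 1750 ± 465 normalized counts on chow (SD, n = 4 each; log2 difference 0.47, SE 0.25, adjusted p = 0.261).

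Hes1 went with the stem cell and cycling markers of the sorted cells. Its r with the summed stem cell markers was 0.95 and its rho 0.87 (adjusted permutation p = 0.000252 and 0.00126), with 0.80 without the 2 farthest libraries and 0.93 within groups. With the cycling markers r was 0.93 and rho 0.82 (adjusted permutation p = 0.000252 and 0.002), with 0.76 without the 2 farthest libraries and 0.90 within groups. The 3 genes most like Hes1 over the 16 libraries, of 18681 compared, were Mcm7, a subunit of the replicative helicase (r = 0.98), Shmt1, an enzyme of one-carbon metabolism (r = 0.979), and Cdt1, which licenses replication origins (r = 0.978), with 0.965 to 0.974 within groups. Germ-free replicate 3, far below the other libraries in Hes1, was not left out of these nearest-gene values. Between members, Hes1 and Dll4 ran in opposite directions (r = -0.75, rho = -0.75, adjusted permutation p = 0.00132 and 0.0145 over the 36 pairs of members; -0.78 without the 2 farthest libraries and -0.56 within groups). Notch1 went with Hes1 less closely (r = 0.61, rho = 0.61, adjusted permutation p = 0.023 and 0.0746, 0.59 without the 2 farthest libraries and 0.53 within groups). Dll4 ran opposite to Notch1 (r = -0.72, rho = -0.68, adjusted permutation p = 0.0184 and 0.0373, -0.57 without the 2 farthest libraries and -0.79 within groups). Dll1 went with Gfi1 (r = 0.825, rho = 0.665, adjusted permutation p = 0.00126 and 0.0373, 0.69 without the 2 farthest libraries). Notch1 also went with the cycling markers (r = 0.75, rho = 0.77, adjusted permutation p = 0.00261 and 0.00702).

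**Figure D2:**
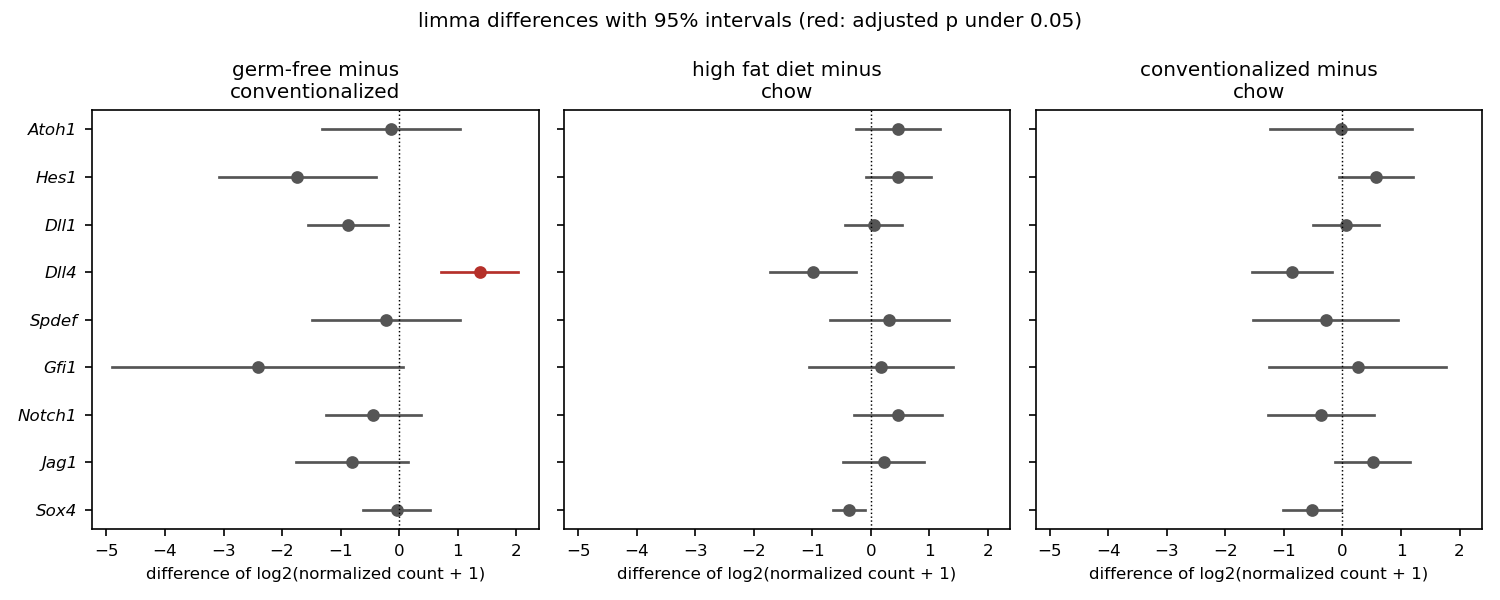
Difference between groups in log2(normalized count + 1) for each member (x axis, the same in all 3 panels) with its 95% interval from limma, for germ-free against conventionalized, high fat diet against chow and conventionalized against chow (4 libraries a group). Dll4 in the first panel, at 1.38, is the value with an adjusted p under 0.05 and is drawn in red; the interval of Gfi1 there is the widest.

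Atoh1 and Spdef, the secretory switch and its goblet and Paneth effector, rose and fell together but not with the groups. Atoh1 was at 1127, 158, 164 and 208 normalized counts in the conventionalized libraries, 175, 340, 276 and 255 in the germ-free, 258, 341, 173 and 424 in the chow and 457, 536, 226 and 417 in the high fat diet libraries. Spdef was at 1058, 153, 133 and 236, at 113, 328, 265 and 276, at 302, 457, 180 and 454, and at 664, 717, 176 and 323 in the same order. Conventionalized replicate 1 was above all other libraries for both genes. The other 3 conventionalized libraries lay below all 4 high fat diet libraries for Atoh1, a pair of groups not compared here, while the groups compared overlapped for both genes. For germ-free against conventionalized mice the log2 differences were -0.13 for Atoh1 (SE 0.54, adjusted p = 0.894) and -0.22 for Spdef (SE 0.58, adjusted p = 0.830), and without conventionalized replicate 1 they turned to 0.54 and 0.44, with adjusted p of 0.487 and 0.631. On the high fat diet the log2 differences were 0.46 (SE 0.32, adjusted p = 0.402) and 0.31 (SE 0.46, adjusted p = 0.716).

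The correlation of Atoh1 with Spdef over the 16 libraries was r = 0.94 and rho = 0.94 (adjusted permutation p = 0.00036 for both, from 1e-05, the smallest value 100000 permutations can give), 0.92 without the 2 farthest libraries and 0.95 within groups. Both went with the 7 goblet cell markers, Atoh1 with r = 0.93 and rho = 0.93 (adjusted permutation p = 0.000252 and 0.00063) and Spdef with r = 0.88 and rho = 0.87 (adjusted permutation p = 0.000252 and 0.00084). Without the 2 libraries farthest in the goblet sum these r were 0.92 and 0.84, and within groups 0.94 and 0.88. The goblet sum itself was 599800 normalized counts in conventionalized replicate 1 and 19700 to 74870 in the other 3 of that group. Atoh1 and Spdef shared their nearest genes: Tpsg1, a tryptase (r = 0.97 and 0.95), and Chst4, a sulfotransferase that modifies mucin sugars (r = 0.94 and 0.93), beside each other.

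Gfi1, the factor that turns Atoh1 cells away from enteroendocrine fate, was measured near its floor. It was listed at 0 in germ-free replicate 4 and lay at 2.71 to 35.0 normalized counts in the other 3 germ-free libraries, against 14.0 to 170 in the conventionalized. Its log2 difference of -2.42 (SE 1.14) was not called (adjusted p = 0.256). Sox4 ranged from 1250 to 2923 normalized counts. All 4 high fat diet libraries (1817, 2045, 2197 and 1927) lay below all 4 chow libraries (2544, 2313, 2923 and 2564), as did 16.2% of all genes tested in either direction, and the log2 difference of -0.37 (SE 0.12) was not called (adjusted p = 0.104). Germ-free against conventionalized mice differed by -0.04 in Sox4 (SE 0.26, adjusted p = 0.936), a sign that turned with quantile normalization (0.19). The members' median log2 difference in germ-free mice was -0.44, with 1 higher and 8 lower, beside a median of 0.11 over all genes tested.

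Of the 3 genes most like each of the remaining members over the 16 libraries, the nearest were Rap1b for Dll4 (r = 0.963, 0.912 within groups), Ccng1 for Dll1 (r = 0.877), Ifit1bl2 for Gfi1 (r = 0.936), Znrf3 for Notch1 (r = 0.919), Plekhh3 for Jag1 (r = 0.856) and Spns1 for Sox4 (r = 0.91). Behind Rap1b, a small GTPase, came Gm17035 (r = 0.963) and Efcab1 (r = 0.961) for Dll4. In the places after the first stood Rap2c and Pdxdc1 for Dll1, Slc31a1 and Chmp2b for Gfi1, Cenpi and Arl15 for Notch1, Stat5a and Gfm2 for Jag1, and Gulo and Ddx5 for Sox4, with r of 0.835 to 0.935. Znrf3 is a ubiquitin ligase that removes Wnt receptors from stem cells. These likenesses were picked as the highest of many and are given as a description.

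The rest of the Notch pathway was followed in a list of 48 genes, of which 43 were tested in germ-free against conventionalized mice. Of these 1, Mfng, was called: it encodes a Fringe glycosyltransferase that changes how Notch receptors read their ligands, and it lay at 325 ± 135 against 61.0 ± 28.8 normalized counts (SD, n = 4 each; log2 difference 2.39, SE 0.44, adjusted p = 0.0184). Its call was lost without germ-free replicate 1 or conventionalized replicate 1 or 2 (adjusted p 0.0582 to 0.0617). The 1 call among 43 genes is close to the share over all genes tested, of which 2.24% were called and 1.95% called as higher. The 43 genes had a median of 0.22, with 25 higher and 18 lower, beside a median of 0.11 over all genes tested. Named for size alone, the ligand Jag2 gave 1.54 (SE 0.48, adjusted p = 0.126), the receptor Notch4 1.50 (SE 0.64, adjusted p = 0.225) and the Notch target Hes5 -3.44 (SE 0.97, adjusted p = 0.0936), the last from 32.4 to 4.16 normalized counts.

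Of 15 other transcription factors of secretory cells, 3 were called higher in germ-free mice and 0 lower, where 1.95% and 0.292% of all genes were; 9 of the 15 had a positive and 6 a negative difference, with a median of 0.53. Neurod1, an enteroendocrine factor, lay at 6003 ± 2231 against 1130 ± 361 normalized counts (log2 difference 2.39, SE 0.32, adjusted p = 0.0129). Insm1, also enteroendocrine, lay at 1001 ± 339 against 262 ± 66.1 (1.91, SE 0.31, adjusted p = 0.0129). Foxa1 lay at 2798 ± 1017 against 1183 ± 255 (1.20, SE 0.28, adjusted p = 0.0474), and its call was lost without any library but germ-free replicate 2 and with median-of-ratios scaling (adjusted p = 0.0878). The calls of Neurod1 and Insm1 were lost without germ-free replicate 1 (adjusted p 0.0518 and 0.0531), the library with the highest enteroendocrine sum.

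On the high fat diet 2 of 42 tested Notch pathway genes were called, both lower: Neurl1a, a ubiquitin ligase that acts on Delta ligands (36.5 ± 13.8 against 160 ± 60.8 normalized counts; log2 difference -2.11, SE 0.37, adjusted p = 0.0402), and Dtx3, a Deltex family member (100 ± 44.0 against 358 ± 117; -1.85, SE 0.32, adjusted p = 0.0389). Of the 15 secretory factors, 13 were lower and 1 was called, Pou2f3, the tuft cell factor (292 ± 116 against 887 ± 104; -1.69, SE 0.29, adjusted p = 0.0389). Over all genes tested in this comparison 0.822% were called, 0.207% as higher and 0.615% as lower. The calls of Neurl1a, Dtx3 and Pou2f3 were lost in each fit that left out a library other than chow replicate 2. In those fits 0 to 69 genes were called. In conventionalized against chow mice no gene of either list was called, and Gfi1b, a relative of Gfi1 found in tuft cells, gave -2.60 (SE 0.56, adjusted p = 0.124).

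In the single-cell samples the members divided by cell class. Classes are clusters found within each set with the members and the other pathway genes left out of the variable genes, and named by markers, so that a class is "goblet-like" and so on; the levels are in CPM, UMIs of the gene per 1000000 UMIs of the class, and are given in the order wild type set 1, knockout set 1, wild type set 2, knockout set 2. They describe the clusters and carry no test. Atoh1 was highest in goblet-like cells, at 138, 150, 110 and 114 CPM, above Paneth-like cells at 11.4, 13.0, 37.0 and 28.4. Paneth-like cells held a median of 72990, 70114.5, 62400 and 37297 UMIs, against 17956, 17341, 26315 and 16219 in goblet-like cells. CPM is a share of these UMIs, so the place of Paneth-like cells in CPM, for any member, is not a rank by UMIs per cell. Goblet-like cells held 80.3% to 89.2% of all epithelial Atoh1 UMIs while forming 15.1%, 19.4%, 28.4% and 26.3% of epithelial cells. In set 2, 1 goblet-like cluster of 137 cells also had 11 enterocyte markers raised, with Fabp6 among its leading genes. Another of 344 cells had 9 cycling and 5 stem cell markers raised. Their median depths were 43512 and 32147.5 UMIs, against 15476 and 17341 in the remaining goblet-like clusters of set 2. The part of these clusters in the set 2 goblet-like levels, shares and ratios was not tested. In enterocyte-like cells Atoh1 was at 0.593 to 0.929 CPM. Its levels in tuft-like (7.05 to 23.2) and enteroendocrine-like cells (6.60 to 16.1) overlapped with each other and with those in Paneth-like cells.

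Spdef and Gfi1 were also highest in goblet-like cells among the epithelial classes. Spdef reached 128, 147, 111 and 112 CPM in goblet-like cells and 11.2, 11.9, 23.9 and 24.6 in Paneth-like cells, and goblet-like cells held 80.5% to 91.9% of its epithelial UMIs. Gfi1 reached 21.3, 19.9, 17.8 and 15.6 in goblet-like and 1.60 to 2.90 in Paneth-like cells. In stem-like cells Gfi1 was at most 0.842 CPM, with exact Poisson upper limits of 1.24 to 7.65 CPM over the samples.

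Both Delta ligands were highest in secretory classes. Dll1 was highest in goblet-like cells at 67.1, 70.1, 65.2 and 76.5 CPM, above tuft-like cells at 20.4 to 33.2, and it was at 2.13 to 6.66 in Paneth-like cells. Dll4 was at 18.6, 39.0, 36.3 and 27.2 CPM in enteroendocrine-like cells and 16.2, 17.5, 18.3 and 22.9 in goblet-like cells; the ranges touch, since the lowest enteroendocrine-like value lies within the goblet-like ones. Because goblet-like cells were many, they held 50.0% to 72.3% of the epithelial Dll4 UMIs and enteroendocrine-like cells 6.01% to 10.1%. Jag1 was low everywhere, at most 12.5 CPM in any named class, and its order among stem-like, cycling-like and enterocyte-like cells was not separable, with ranges of 2.48 to 12.5, 7.60 to 12.4 and 4.79 to 7.90.

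Among epithelial classes, the receptor Notch1 and its target Hes1 were highest in stem-like cells at the clustering resolution used (Leiden resolution 1). Notch1 was at 27.0, 38.4, 36.8 and 42.4 CPM in stem-like cells and 20.3, 23.8, 11.1 and 15.6 in cycling-like cells, which overlapped with tuft-like (14.5 to 23.2) and enteroendocrine-like cells (10.3 to 21.1). Hes1 was at 108, 129, 92.9 and 100 in stem-like cells, 83.2, 99.8, 58.3 and 57.0 in cycling-like cells, 38.9, 49.9, 30.2 and 38.9 in goblet-like cells and 24.4, 35.4, 30.6 and 27.5 in enterocyte-like cells. Stem-like exceeded cycling-like cells in all 4 samples, and the goblet-like and enterocyte-like ranges overlapped. Paneth-like cells were lowest at 7.83 to 13.1 CPM, a share of their many UMIs and not a rank by UMIs per cell. With coarser clusters (Leiden resolution 0.5) the stem-like class grew from 96 to 279 cells in set 1 and from 326 to 605 in set 2. In set 2 it was led by Lyz2, with Apoe among its leading genes, and 3 myeloid markers were raised beside 8 stem cell markers. Lyz2 and Apoe also led a set 2 cluster of 284 cells that was left unnamed as mixed at resolution 1. The part of such cells was not tested. With this coarser class the order of stem-like above cycling-like cells did not hold in set 2. Hes1 was then at 61.5 CPM in stem-like and 68.4 in cycling-like cells of the wild type, and at 72.0 and 66.3 in the knockout. Notch1 was at 18.0 and 18.4 CPM in the wild type and at 16.3 and 25.3 in the knockout of set 2, where tuft-like (23.2) and enteroendocrine-like cells (21.9) were also above stem-like cells. Sox4 was high in stem-like (233 to 254), tuft-like (207 to 378) and enteroendocrine-like cells (163 to 492), whose ranges overlap, and was at 3.37 to 5.52 in enterocyte-like cells. With the coarser clusters Sox4 in stem-like cells was at 99.97, 164, 97.2 and 112 CPM, below all tuft-like values.

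**Figure D3:**
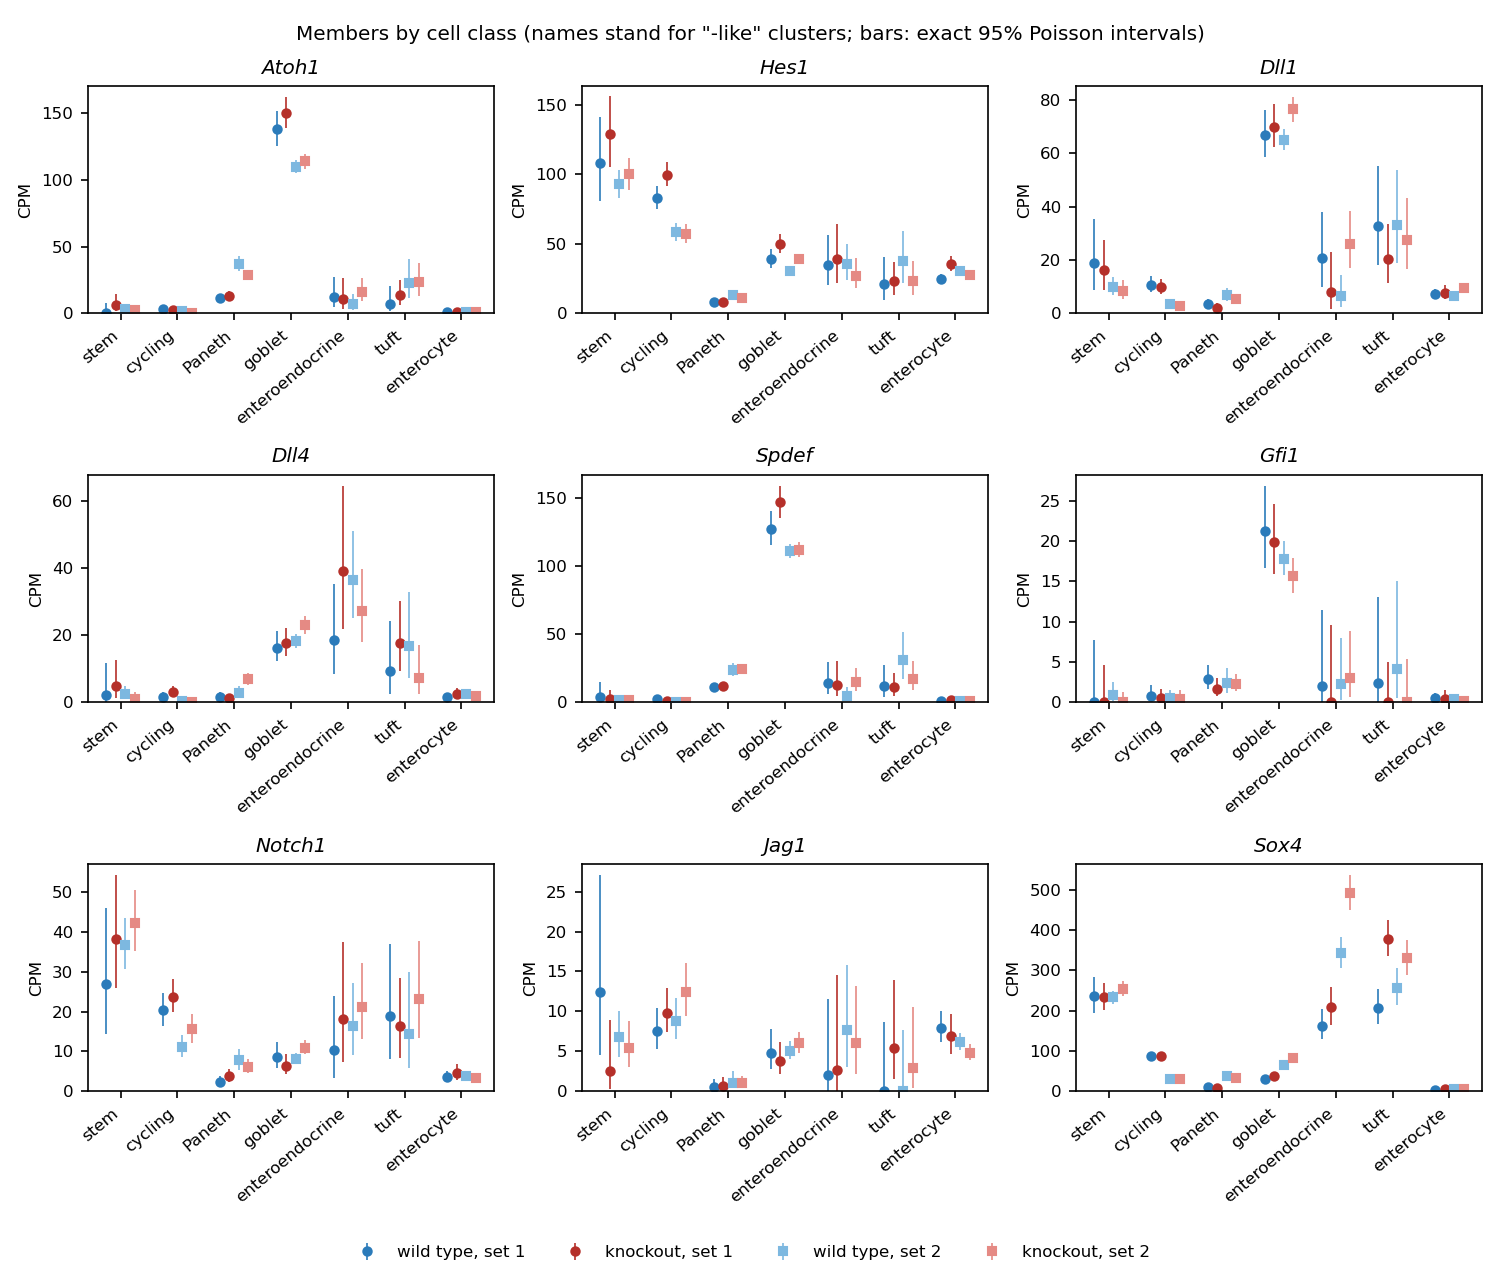
CPM, UMIs per 1000000 (y axis, linear from 0, a separate scale for each gene) of the 9 members in 7 classes of epithelial cells (x axis) for the 4 single-cell samples; points are summed UMIs and bars exact 95% Poisson intervals of counting error. Atoh1, Spdef, Gfi1 and Dll1 stand highest in goblet-like cells, and Hes1 and Notch1 in stem-like cells. Coarser clusters took stem-like cells from the top for Hes1 in wild type set 2 and for Notch1 in both samples of set 2. Lyz2 led the coarser stem-like cluster of that set.

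Counted cell by cell, after each cell was thinned to 1000 UMIs, 13.0%, 15.3%, 13.0% and 12.4% of goblet-like cells had an Atoh1 UMI. The share was 0.141% and 0.123% in T lymphocyte-like cells of set 2, which should lack the gene, and at most 0.313% in enterocyte-like cells. Without thinning the goblet-like shares were 80.0% to 87.7%, at median depths of 16219 to 26315 UMIs, and the T lymphocyte-like shares 0.493% and 0.616%, at 2861 and 2095 UMIs.

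UMIs of Spdef and Dll1 were more frequent in cells that also held an Atoh1 UMI. At 1000 UMIs a cell, 3.70%, 17.1%, 13.4% and 14.1% of the epithelial cells with an Atoh1 UMI also had a Spdef UMI, against 1.31%, 2.73%, 2.64% and 3.97% of those without; the first group counted 27 to 85 cells. At 3000 UMIs, which left out 39 and 45 cells of the wild-type and knockout samples of set 2, the Spdef shares were 35.8%, 39.1%, 40.4% and 33.0% against 3.72%, 6.03%, 7.79% and 6.70%. For Dll1 the shares at 1000 UMIs were 7.41%, 7.32%, 2.99% and 16.5% with an Atoh1 UMI against 2.28%, 1.96%, 2.52% and 3.20% without. Their intervals overlapped in all samples but knockout set 2. At 3000 UMIs Dll1 was found in 29.9%, 19.5%, 21.7% and 26.4% of cells with an Atoh1 UMI against 4.69% to 6.16% of cells without. The intervals at 3000 UMIs did not overlap in any sample. At that depth Hes1 was found in 8.96%, 10.3%, 8.43% and 5.19% against 9.44%, 15.4%, 11.1% and 9.38%, lower in all 4 samples with overlapping intervals.

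Within goblet-like cells alone the contrasts were smaller. Spdef was found in 39.3%, 41.8%, 46.1% and 38.1% of those with an Atoh1 UMI and in 25.6%, 38.5%, 31.3% and 26.9% of those without. Dll1 was found in 35.7%, 21.5%, 24.1% and 29.8% against 17.4%, 18.6%, 13.9% and 20.7%. Both shares were higher beside Atoh1 in all 4 samples, but the intervals overlapped in all pairs except Spdef in wild type set 2.

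**Figure D4:**
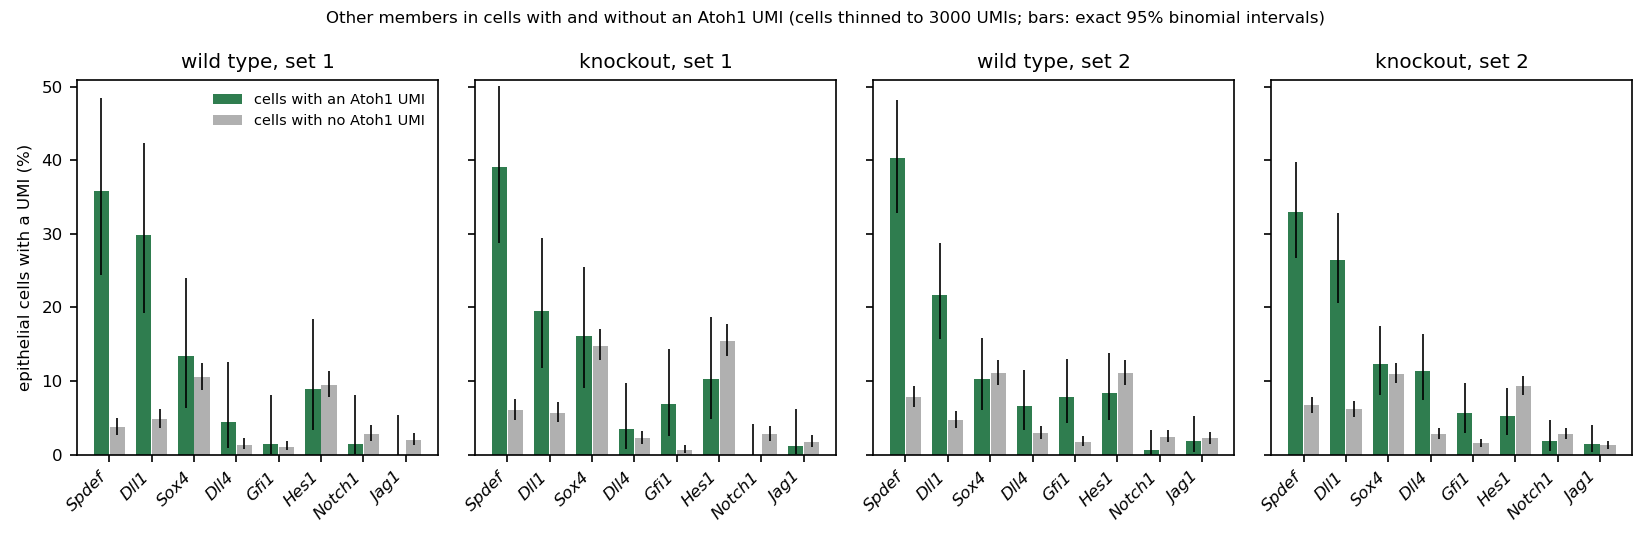
Share of epithelial cells with at least 1 UMI of each other member (y axis, percent, from 0), among cells with an Atoh1 UMI (green) and without one (grey), all thinned to 3000 UMIs, in the 4 single-cell samples; bars on the columns are exact 95% binomial intervals. Spdef and Dll1 stand far higher beside Atoh1 in every sample, and Hes1 does not.

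No member was called in the miR-375 knockout. Over all kept cells the log2 differences, knockout minus wild type, ran from -0.36 (SE 0.36) for Gfi1 to 0.44 (SE 0.26) for Dll4 and 0.44 (SE 0.26) for Sox4, each with an adjusted p of 1 in edgeR's quasi-likelihood test over 13637 genes. That test called 0 genes (0.0%) in all, with 96 (0.704%) at an unadjusted p under 0.05 and no member among them. Over epithelial clusters it called 0 of 13106 (0.0%), with 108 (0.824%) at that threshold and again no member. With the set as a block there, its unadjusted p was 0.0141 for Sox4 and 0.0413 for Notch1, and neither was called. DESeq2 over all kept cells called 6 genes and no member. Of the members 8 lay above 0 and Gfi1 below, with a median of 0.25 beside 0.00 over all genes tested; Jag1, at 0.01 (SE 0.30), turned to -0.05 in epithelial clusters.

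With 1 sample a genotype in a set, the sets were set side by side, with intervals that cover counting error only. In set 1 the knockout held a higher CPM of Hes1 (53.7 against 36.2, a ratio of 1.49, interval 1.36 to 1.62), Sox4 (66.4 against 47.7, ratio 1.39, 1.29 to 1.50), Atoh1 (30.9 against 23.3, ratio 1.32, 1.18 to 1.48), Spdef (29.9 against 21.5, ratio 1.39, 1.24 to 1.56) and Notch1 (11.6 against 8.24, ratio 1.41, 1.17 to 1.70). In set 2 the ratios were 0.991 for Hes1 (0.931 to 1.06), 0.985 for Atoh1 (0.925 to 1.05), 0.971 for Spdef (0.911 to 1.04) and 0.920 for Notch1 (0.825 to 1.03). Sox4 was higher in the knockout of both sets, with a ratio of 1.21 in set 2 (1.15 to 1.27), and so was Dll4, with 1.49 (1.15 to 1.93) and 1.16 (1.01 to 1.32). Over epithelial clusters of set 2 the ratio was 1.15 for Sox4 (1.095 to 1.21) and 1.10 for Dll4 (0.962 to 1.26), the latter with an interval that includes 1. In a check chosen after seeing the data, without the 134 knockout cells of a set 1 cluster that held 1 wild-type cell, the set 1 ratios were 1.39 for Hes1, 1.43 for Sox4 and 1.44 for Atoh1.

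The makeup of the samples differed beside these ratios. Goblet-like cells formed 14.8% of kept cells in wild type and 18.9% in knockout of set 1, and 14.0% and 18.0% in set 2; enterocyte-like cells, where Atoh1, Spdef and Sox4 were near 0, formed 44.4% and 25.8% in set 1 and 21.7% and 28.8% in set 2. In set 1 different clusters held most enterocyte-like cells of each genotype. Gfi1 had the lowest ratio of set 2, 0.615 (0.539 to 0.700). T lymphocyte-like cells carried 74.1 and 66.2 CPM of Gfi1 and formed 42.3% of wild-type and 24.2% of knockout cells there; over epithelial clusters the ratio was 0.769 (0.649 to 0.911) and in goblet-like cells 0.878 (0.733 to 1.05). Notch1, at 48.4 and 38.5 CPM in T lymphocyte-like cells, had a set 2 ratio of 1.12 over epithelial clusters (0.983 to 1.27), on the other side of 1 from its value over all kept cells. The part of cell makeup in the other ratios was not tested.

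Inside goblet-like cells, Atoh1 and Spdef had ratios for the 2 sets of 1.09 (0.962 to 1.23) and 1.04 (0.969 to 1.11) for Atoh1 and 1.15 (1.02 to 1.31) and 1.01 (0.946 to 1.08) for Spdef. Hes1 was at 38.9 in wild type and 49.9 CPM in knockout of set 1 (ratio 1.28, 1.03 to 1.61), and at 30.2 and 38.9 in set 2 (1.29, 1.14 to 1.46). Outside goblet-like cells the set 2 ratio of Hes1 was 1.08 in stem-like, 0.977 in cycling-like and 0.813 in Paneth-like cells. It was 0.772 in enteroendocrine-like, 0.623 in tuft-like and 0.900 in enterocyte-like cells, and all these intervals included 1. The set 1 ratios in these classes were 1.07 to 1.45. Sox4 gave 1.24 (0.957 to 1.60) and 1.26 (1.16 to 1.37). With the coarser clusters Sox4 in goblet-like cells of set 1 was at 104 CPM in wild type and 95.1 in knockout, against 30.3 and 37.4 here. Its direction in set 1 thus depended on the clustering, and in set 2 it was at 70.4 and 91.3. At resolution 1 a set 1 cluster led by Neurog3 held 1387 and 1259 CPM of Sox4. No coarser cluster was led by Neurog3, and the coarser goblet-like clusters held 178 and 268 cells against 179 and 233. The part of the Neurog3 cluster in the coarser values was not tested. Across the 4 samples, goblet-like cells at resolution 1 gave log2 differences of 0.41 for Hes1 (SE 0.33) and 0.35 for Sox4 (SE 0.42). Each had an adjusted p of 0.9999 in edgeR's quasi-likelihood test over 11206 genes. Of these genes 0 (0.0%) were called and 78 (0.696%) had an unadjusted p under 0.05. No gene was called in any of the 7 classes tested. An unadjusted p under 0.05 was reached by 0.446% of genes in cycling-like, 0.407% in stem-like and 0.702% in Paneth-like cells. The share was 1.15% in enterocyte-like, 1.1% in tuft-like and 1.33% in enteroendocrine-like cells. No member reached it in any class in these fits, which had no block for the set. With the set as a block, the log2 differences in goblet-like cells were 0.40 for Hes1 (SE 0.11) and 0.35 for Sox4 (SE 0.11). The same edgeR test with this block gave unadjusted p of 0.00726 for Hes1 and 0.0118 for Sox4 (adjusted p 0.581 and 0.729). For Sox4 it gave 0.0159 in tuft-like and 0.0328 in enteroendocrine-like cells, and again no member was called. In enteroendocrine-like cells Sox4 was at 163 and 208 CPM in wild type and knockout of set 1 and at 343 and 492 in set 2 (ratios 1.28, 0.925 to 1.77, and 1.43, 1.24 to 1.66), in 27 to 71 cells a sample.

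**Figure D5:**
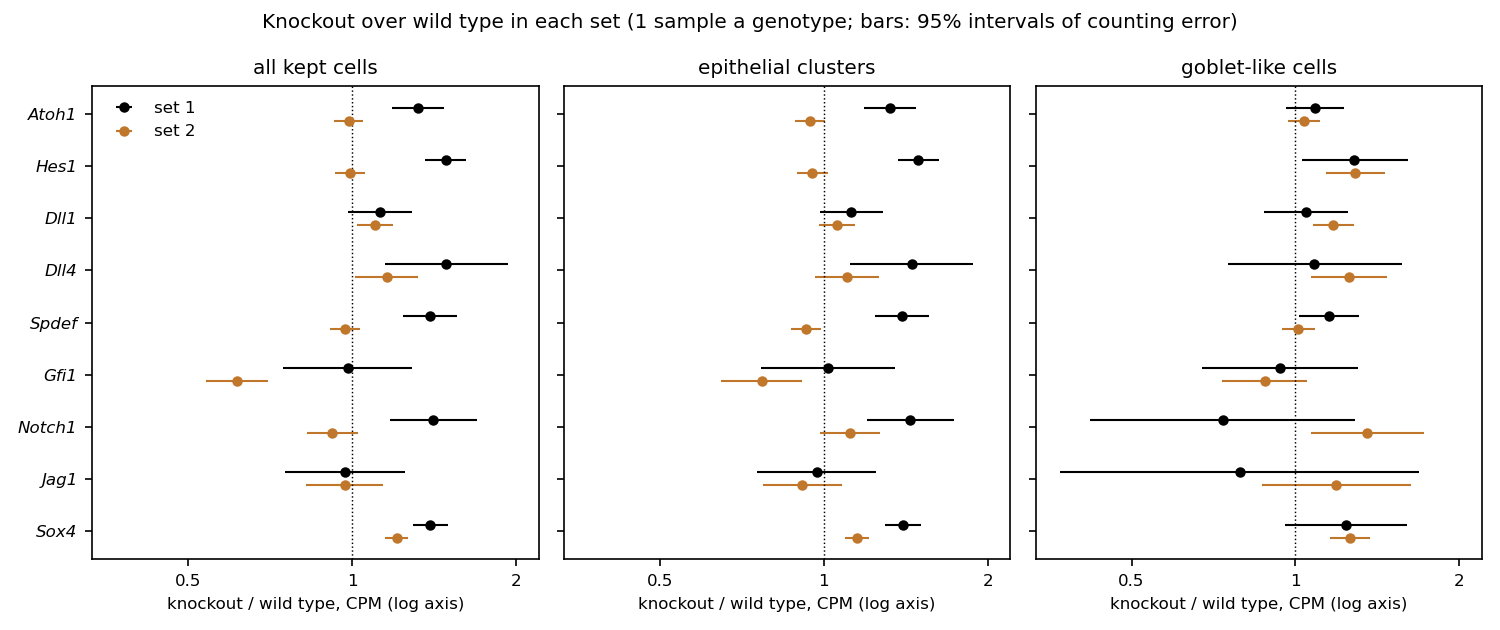
Ratio of knockout to wild type in CPM (x axis, log scale) for each member in set 1 (black) and set 2 (orange), over all kept cells, epithelial clusters and goblet-like cells; bars are 95% intervals of counting error with 1 sample a genotype in a set. Hes1 lies at 1.49 in set 1 and 0.991 in set 2 over all kept cells, at 1.49 and 0.952 over epithelial clusters and at 1.28 and 1.29 in goblet-like cells.

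Among the other pathway genes, all 15 secretory factors lay above 0 in the knockout over all kept cells (median log2 difference 0.33, beside 0.00 for all genes tested), and 0 were called. Over epithelial clusters 14 of 15 did, with a median of 0.27. The values of largest size were 1.25 for Gfi1b (SE 1.05) and 1.03 for Pou2f3 (SE 0.82), both tuft cell factors; tuft-like cells formed 2.01% and 3.71% of kept cells in wild type and knockout of set 1 and 0.833% and 1.70% in set 2. Of the 48 other Notch genes 42 were tested, with 20 above and 22 below 0, a median of -0.01 and 0 called. Within them the ligands Dll3 (1.01, SE 0.64) and Jag2 (0.86, SE 0.60) had the largest values of their group, each with an adjusted p of 1 in edgeR's quasi-likelihood test.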

How the data were processed

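The members and gene lists were chosen with earlier results of these data known. The 16 mRNA columns are a signal that the authors deposited as normalized counts; the submitters' processing notes name mm10, STAR, Salmon, Cell Ranger and DESeq2 without roles, and the method of scaling is not stated there. Of 48440 entries, 381 without a gene name (0.0338% to 0.0804% of a library) were left out. Genes with a mean of at least 10 were tested on log2(value + 1) with limma 3.58.1 (trend), at an adjusted p under 0.05. The single-cell matrices hold deposited UMI counts per gene and cell; per the file headers, set 2 was written by software version 3.0.1. Kept cells were clustered within each set with scanpy 1.11.5 (2000 variable genes, 30 components, 15 neighbours, Leiden resolution 1); doublets were not removed. Clusters were named from listed markers, and 6 clusters were left unnamed after their leading genes were seen. Sums per sample were tested with edgeR 4.0.16 (quasi-likelihood, TMM); DESeq2 1.42.0 was an alternative. Intervals are at 95%. Those of single-cell levels, ratios and shares cover counting error only, and those from limma reflect the spread between libraries. Both tests were checked on simulated data. Small RNA files were not used here. All 9 members are named; of each other list, the called genes (at most 4 by size) or, with none called, the 2 largest, of which the text gives the principal ones; and for each member its 3 nearest genes. Promoters are from RefSeq.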

Additional observations from a re-analysis of the deposited data

Results flagged for a closer look

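Over 36 sets of 4 values, 1 member in 1 group at a time, 4 values lay far from the other 3 of their group, where chance alone gives about 1 in 20; they came from 2 libraries. In conventionalized replicate 1, Atoh1 was at 1127 normalized counts against 158 to 208 in the other 3 libraries, Spdef at 1058 against 133 to 236, and Gfi1 at 170 against 14.0 to 27.8. These 3 are values of 1 library and not independent; its goblet marker sum was 599800 against 19700 to 74870, and the part of goblet cells in the 3 values was not tested. Jag1 was at 78.2 in chow replicate 3 against 54.5 to 57.7 normalized counts.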

How the results depend on the processing

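Of 623 gene values under another setting, 543 kept their direction and side of the threshold. In germ-free against conventionalized mice 453 genes were called, 1672 with the spread from all 16 libraries (when 50.2% of calls were higher, against 87.0%) and 1 to 684 without 1 library (1 without germ-free replicate 1); the members called were 0 with median-of-ratios scaling or the replicate block (Dll4 adjusted p = 0.0514) and 0 to 1 without 1 library. Quantile normalization moved the median of all genes from 0.11 to -0.01 and Sox4 to 0.19. On the high fat diet 135 genes were called, 317 without a filter, 33 with the spread from all libraries, 271 with the replicate block and 0 to 2590 without 1 library (members 0 to 1). In conventionalized against chow mice 17 were called, 39 without a filter, 10 with quantile normalization, 26 with the spread from all libraries, 165 with the replicate block and 0 to 6 without 1 library. Same-numbered mRNA libraries correlated at -0.36 to 0.459, so the numbers do not pair them; the sets of single cells gave 0.655 over 2 pairs, and the block changed no member's call there. Signs turned when 1 library was left out, over these ranges: in germ-free mice Atoh1 (-0.41 to 0.54), Spdef (-0.56 to 0.44) and Sox4 (-0.21 to 0.13); on the high fat diet Dll1 (-0.13 to 0.18; -0.012 with quantile normalization) and Gfi1 (-0.21 to 0.71); in conventionalized against chow mice Atoh1 (-0.69 to 0.25; 0.048 with quantile normalization), Dll1 (-0.14 to 0.27), Spdef (-0.95 to 0.047) and Gfi1 (-0.50 to 0.67; -0.093 with quantile normalization); and in single cells Hes1 (-0.13 to 0.76), Gfi1 (-0.69 to 0.10) and Jag1 (-0.21 to 0.24; -0.020 with doublets removed, -0.048 in epithelial clusters). DESeq2 called 6 genes in single cells and edgeR 0. The cause was not tested. Low counts limit Gfi1, Jag1 and Dll4, which had 103 to 131 UMIs in wild type set 1.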

Other observations

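Clusters outside the named classes held the most extreme levels of some members. A set 1 cluster of 29 cells, 14 wild-type and 15 knockout, was led by Neurog3, the factor that commits a cell to enteroendocrine fate, with Tff3, Sox4 and Insm1. It carried 1387 CPM of Sox4 in wild-type and 1259 in knockout cells (CPM is UMIs per 1000000 UMIs), above the 163 to 492 of enteroendocrine-like cells. Dll1 was at 139 and 144 CPM there, against 65.2 to 76.5 in goblet-like cells, and Dll4 at 31.0 and 27.9. Sox4 is among the leading genes of this cluster, though it was left out of the variable genes, so its level there is a description.

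Outside the epithelium, T lymphocyte-like cells of set 2 carried Notch1 at 48.4 CPM in wild type and 38.5 in knockout, and Gfi1 at 74.1 and 66.2. In the same cells Atoh1, Spdef and Hes1 lay between 1.86 and 2.71 CPM. The set 1 cluster of 135 cells with 134 from the knockout was led by haemoglobin genes and had Hes1 at 92.2 and Sox4 at 49.0 CPM.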
